A study of Mus musculus with 9 samples.

Results

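A set of 40 genes of the actin cytoskeleton, of serum response factor (SRF) and of Yes-associated protein (YAP) signaling was followed in MyC-CaP prostate cancer cells given NRG1. The genes were taken by symbol from a written list of pathway members, and all 40 were among the 15552 protein-coding genes of the count table. The list was chosen with earlier results of these data known. They fall into 19 genes of actin filaments and SRF, 15 targets of YAP, and 6 genes for the YAP-family coactivators and their DNA-binding partners. MyC-CaP is an epithelial-like mouse line that came from a MYC-driven prostate tumor, and NRG1 is a ligand of the receptor HER3. The 0, 12 and 24 h time points were each represented by 3 biological replicates, and mRNA was sequenced in all 9 libraries. In all groups the cells had been starved for 6 to 12 h in medium without serum or calcium, and recombinant NRG1 was used at 15 ng/mL.

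Each comparison against 0 h therefore covers the time with NRG1 and the time in this medium, which cannot be told apart, since no later library from cells without the ligand was used here. In RNA from bulk cells, fewer cells of a type and less RNA per cell cannot be told apart either. All samples are of a single line grown in parallel wells, so the p-values measure the spread between wells of that line.

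SRF is a transcription factor that binds DNA at a sequence called the CArG box. Its coactivators of the MRTF family are held in the cytoplasm by unpolymerized actin, and when actin polymerizes they enter the nucleus, so the genes of actin, tropomyosin, calponin and vinculin form a loop with the state of the filaments they encode. YAP and its paralog TAZ (encoded by Wwtr1) do not bind DNA themselves and act through the TEAD factors. Kinases of the Hippo pathway exclude them from the nucleus, and tension on the cytoskeleton promotes their entry. Ccn1 and Ccn2, which encode secreted matricellular proteins, are known to answer to both arms.

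Library totals lay between 28467089 and 39239760 counts, and 11373 of the 15552 genes had enough counts to be tested, among them 37 of the 40 members. Levels are given as CPM (counts scaled to the library size), and changes as log2 fold changes with their standard errors (SE). A gene passed when its adjusted p was at most 0.05 in edgeR's quasi-likelihood test with Benjamini-Hochberg adjustment over all tested genes. It was called when its fold change was also at least 1.5. Replicate 3 at 12 h stood apart from the other 12 h libraries. It was the highest of its time point in 21 of 37 members, or 56.8%, against 37.2% of all tested genes, so results that rest on it are given with and without it.

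The labeled cell type was checked against its markers. The luminal keratin gene Krt8 was at 18.2 ± 1.30 CPM at 0 h (SD, n = 3). Of the other epithelial markers reported here, all were at or near 0, with Krt18 at 0.253 CPM, Cdh1 at 0.0824 CPM and Epcam at 0 CPM at 0 h. The 5 smooth muscle markers summed to between 0.36 and 0.772 CPM over the 9 libraries, and the 3 blood markers to between 0.39 and 1.05 CPM. The 7 fibroblast markers in the table summed to between 16 and 18.6 CPM, nearly all of it Pdgfra.

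Per kilobase of exon, the cytoplasmic actins were the most abundant members. Before NRG1, Actb stood at 735 ± 8.22 CPM per kb (SD, n = 3) and Actg1 at 512 ± 19.6. These 2 genes are close paralogs, and reads shared between them could be split or lost. Tpm4, a tropomyosin that coats actin filaments, followed at 179 ± 0.61 CPM per kb, and Cnn3, a calponin, at 156 ± 0.70. Ccn2 was the most abundant YAP target at 106 ± 5.41 CPM per kb, and it did not overlap Cnn3 above it or Myh9 below it, at 89.6 ± 3.83. Cnn2, Flna and Tagln2, at 77.2 ± 1.98, 75.3 ± 4.85 and 75.2 ± 1.52 CPM per kb, did not differ beyond their spread. Among the factors, Yap1 was at 25.1 ± 0.605 CPM per kb and Wwtr1 at 6.71 ± 0.343, with Tead2 the most abundant TEAD gene per kb at 14.7 ± 0.0928. Without division by length, Tead1 at 79.1 ± 8.51 CPM and Tead2 at 70.3 ± 0.445 CPM overlapped at 0 h.

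The low end of the list held the markers of contractile smooth muscle and some classical YAP targets. Acta2, the smooth muscle actin, had no count in 7 of 9 libraries, and the others gave 0.0326 CPM at 12 h and 0.0897 CPM at 24 h. Myl9, a myosin light chain, reached at most 0.0653 CPM, and Thbs1, which encodes a secreted matrix glycoprotein, at most 0.0598 CPM. These 3 genes had at most 3 counts in any library, a floor that stands for 0.0764 to 0.1065 CPM depending on depth, and were not tested. Tagln (SM22), a calponin-like protein of smooth muscle, was between 0.105 and 0.392 CPM, and 67.9% of its exonic bases lie under genes on the opposite strand. Ankrd1, a nuclear ankyrin repeat protein and YAP target, was at 0.636 ± 0.0684 CPM per kb at 0 h, far below the other defining YAP targets, Ccn2 and Ccn1 (39.8 ± 2.30).

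**Figure D1:**
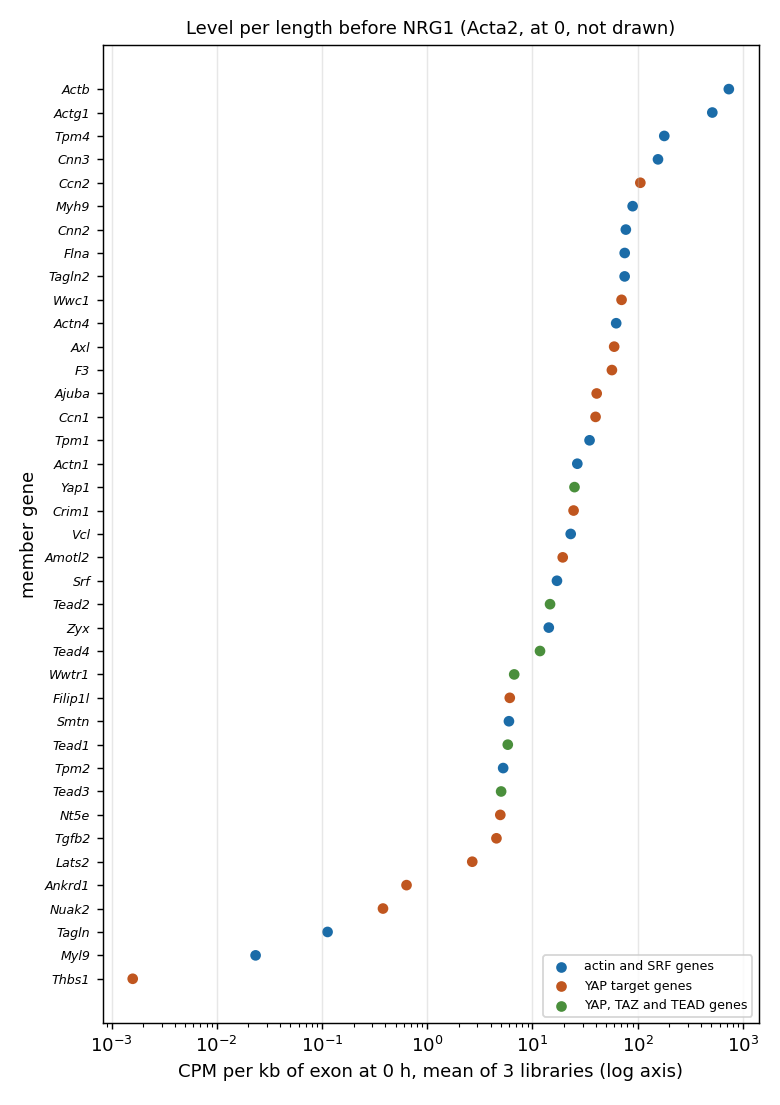
Mean level of each member before NRG1, in CPM per kb of exon on a log axis, over 3 libraries, colored by group (blue, actin and SRF genes; orange, YAP targets; green, YAP, TAZ and TEAD genes). Actb at 735 and Actg1 at 512 lead, and Thbs1 is the lowest drawn; Acta2, at 0, is not drawn.

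Sequence motifs were searched in promoter windows of 300 bases (250 before to 50 after the start site, RefSeq, build GRCm38.p6), which 33 of the 40 members had. On both strands, the CArG box was found in 5 of 17 windows of actin and SRF genes (29.4%) and in 1 of 14 windows of YAP targets (7.14%), against 1.63% of 32851 windows of all genes. The stretches around these boxes are printed because the box is the sequence that SRF binds. Capitals mark the CArG box, and the strand is that of the gene.
Srf, chr17:46556185-46556274, minus strand: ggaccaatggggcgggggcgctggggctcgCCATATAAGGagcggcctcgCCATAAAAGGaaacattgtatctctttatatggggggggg
Actg1, chr11:120348546-120348615, minus strand: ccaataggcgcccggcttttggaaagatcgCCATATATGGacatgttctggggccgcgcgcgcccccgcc
Vcl, chr14:20929148-20929210, plus strand: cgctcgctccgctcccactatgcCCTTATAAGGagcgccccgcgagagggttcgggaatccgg
Cnn2, chr10:79988514-79988583, plus strand: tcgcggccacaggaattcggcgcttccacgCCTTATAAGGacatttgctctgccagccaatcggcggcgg
Myl9, chr2:156775273-156775342, plus strand: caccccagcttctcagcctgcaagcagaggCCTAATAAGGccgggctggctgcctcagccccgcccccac
Filip1l, chr16:57549150-57549219, plus strand: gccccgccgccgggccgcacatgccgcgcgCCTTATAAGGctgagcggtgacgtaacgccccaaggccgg

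The Srf window held 2 boxes and the others 1 each. For Filip1l, 1 of its 2 windows held the box. That window lies inside the gene as GENCODE annotates it, at an internal start site. All 6 stretches lie upstream of the start site of their window and outside annotated exons. These genes differed in their results for RNA. Of the 5 that were tested, Filip1l rose and Cnn2 fell at 12 h, Actg1 and Filip1l rose at 24 h, and Srf and Vcl passed at neither time. A match is a description of the letters and not a site of binding.

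The TEAD motif GGAATG was found in 7 of 14 windows of YAP targets (50%), in 7 of 17 windows of actin and SRF genes (41.2%) and in 5 of 7 windows of the factors (71.4%), against 14.7% of all windows. The windows of the factors are not all separate, since the 2 Wwtr1 windows overlap and hold the same match. By gene, the motif was in 3 of 4 factors with a window (75%), against 16.6% of all genes with a window. Windows of Yap1, Ccn1 and Smtn are shown, since they belong to the coactivator itself, a defining YAP target and the only member called. The AP-1 motif TGANTCA was found in 2 of 17, 1 of 14 and 0 of 7 windows, against 7.81% of all, and it is shown for F3, whose window held 2 matches. Capitals mark the motif on either strand, so GGAATG on the opposite strand reads CATTCC.
Ccn1, chr3:145650053-145650118, minus strand: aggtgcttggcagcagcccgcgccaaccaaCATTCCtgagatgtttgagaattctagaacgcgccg
Yap1, chr9:8004702-8004767, minus strand: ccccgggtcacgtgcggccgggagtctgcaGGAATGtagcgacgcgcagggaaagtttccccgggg
Smtn, chr11:3539479-3539542, minus strand: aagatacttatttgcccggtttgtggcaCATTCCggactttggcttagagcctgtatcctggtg
F3, chr3:121723361-121723438, plus strand: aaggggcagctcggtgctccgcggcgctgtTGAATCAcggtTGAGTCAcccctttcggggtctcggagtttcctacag

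The Smtn window lies inside the gene as GENCODE annotates it, at an internal start site, and no CArG box was found in it. Of the F3 stretch, 42 bases lie in an exon of the neighboring gene Gm43823. No match of 1 motif overlapped a match of another. Of the 16 tested members with a TEAD motif, 2 rose and 5 fell at 12 h, and of the 15 tested members whose windows lack it, 3 rose and 7 fell. At 24 h, 2 rose and 1 fell with the motif, and 3 rose and 3 fell without it.

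**Figure D2:**
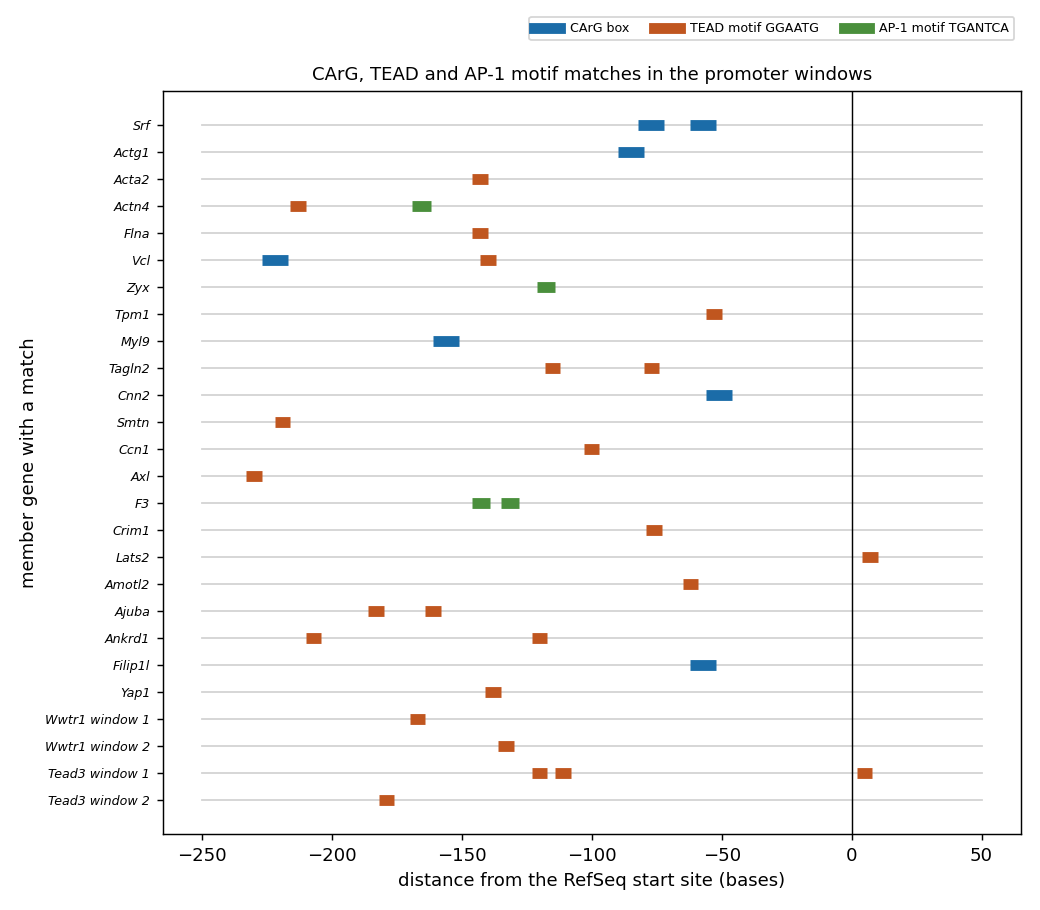
Positions of CArG (blue), TEAD (orange) and AP-1 (green) matches in the promoter windows of members with at least 1 match, in bases from the RefSeq start site (0, vertical line). CArG boxes lie in the windows of 5 actin and SRF genes and of Filip1l, while TEAD matches are spread over all 3 groups.

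To ask how the actin and SRF genes and the YAP targets moved with NRG1, each time point was compared with 0 h. At 12 h, 18 of the 37 tested members passed (48.6%), 6 higher and 12 lower, against 25.5% of all tested genes, 13.6% higher and 11.9% lower. Since the members were chosen with earlier results known, their shares in all 3 comparisons describe the list and do not test it. The members are abundant, with a median of 143 CPM against 33.6 CPM for all tested genes. Among genes with a mean of at least 10 CPM the share passing was 52.9% of members and 29.8% of genes. This cut does not match the abundance of the members. The libraries of both times did not overlap for 18 of the 37, against 38.4% of all tested genes. The changes were small, and only Smtn was called at 1.5-fold, against 2.29% of all tested genes. Within the groups, 3 of 17 actin and SRF genes rose and 5 fell, 3 of 14 YAP targets rose and 5 fell, and 2 of 6 factor genes fell. The median log2 fold change was -0.01 for actin and SRF genes, -0.12 for YAP targets and -0.07 for the factors, beside a median near 0 for all tested genes (-0.0028).

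At 24 h, 10 of 37 members passed (27%), 6 higher and 4 lower, against 17.4% of all tested genes, 9.67% higher and 7.76% lower. The actin and SRF genes held 4 that rose and 2 that fell, the YAP targets 2 that rose and 1 that fell, and the factors 1 that fell. The median log2 fold changes of these groups were 0.0035, -0.0008 and 0.01. At a mean of at least 10 CPM, 29.4% of members and 20.0% of genes passed, and the libraries did not overlap for 15 of 37 members, against 35.5% of tested genes. Smtn was again the only member called, against 2.27% of all tested genes.

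**Figure D3:**
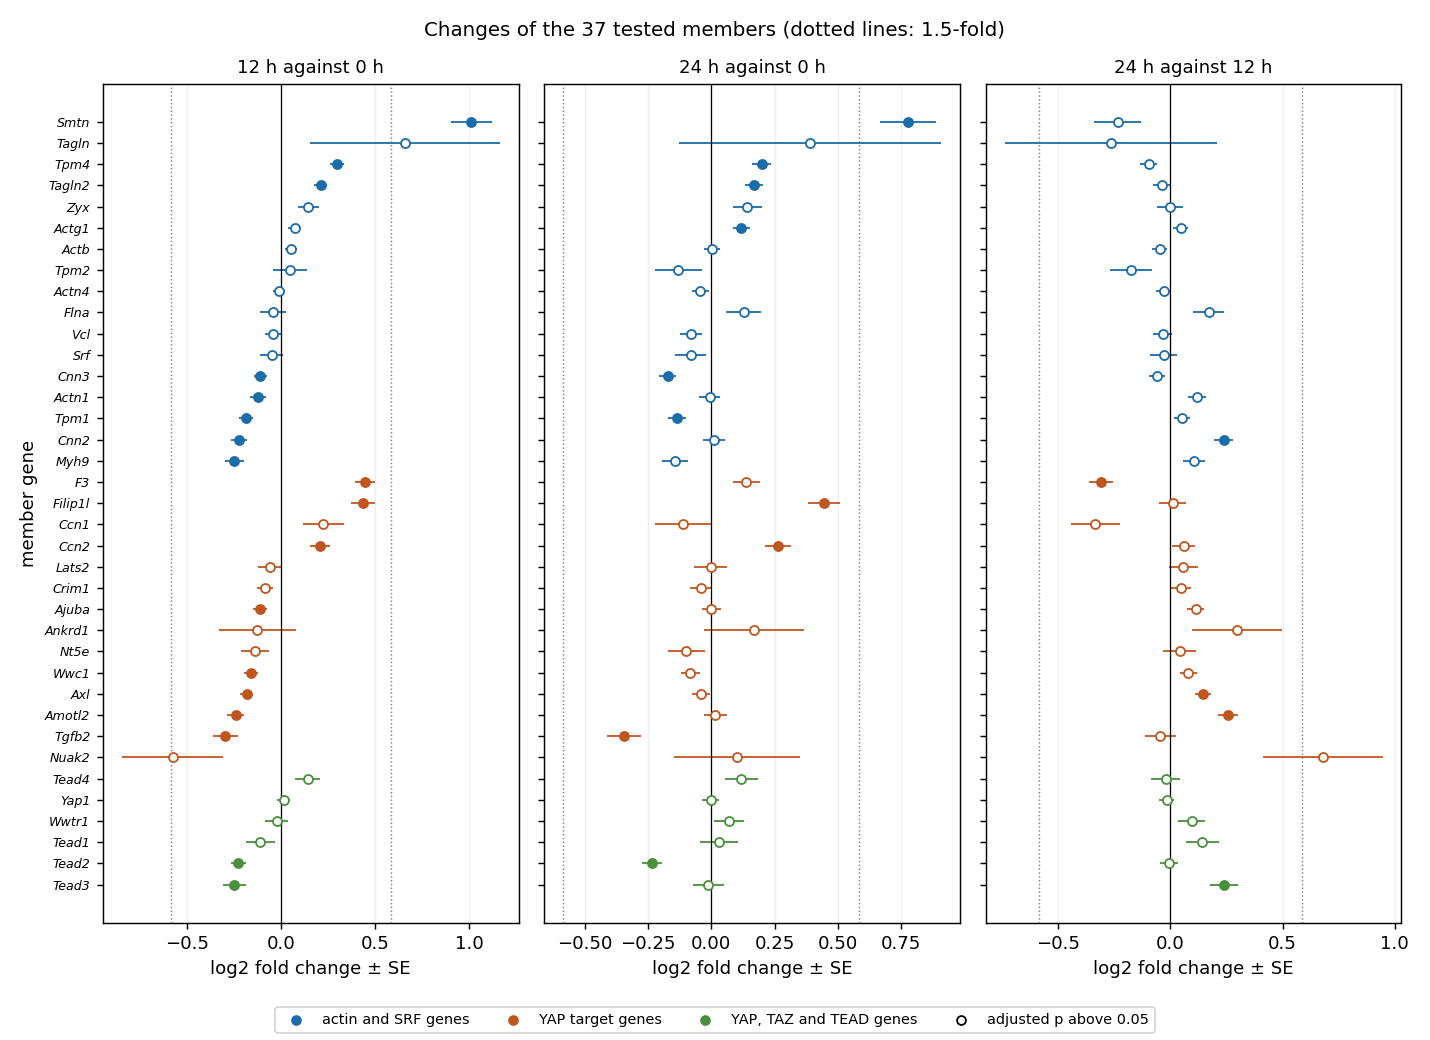
Log2 fold changes ± SE of the 37 tested members in the 3 comparisons, colored by group, with filled points for an adjusted p of at most 0.05 and dotted lines at 1.5-fold. Smtn is the only filled point beyond a dotted line, at 1.01 at 12 h and 0.78 at 24 h.

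Among the actin and SRF genes, Smtn, which encodes the actin-binding protein smoothelin, changed most. The gene lies at chr11:3517523-3540612 on the minus strand (GRCm38.p6). It was at 24.3, 28.9 and 25.3 CPM in the 0 h libraries, at 45.2, 48.0 and 65.9 CPM at 12 h, and at 48.2, 45.3 and 41.8 CPM at 24 h. Every library with NRG1 was above every 0 h library, and the 65.9 CPM belonged to replicate 3. The log2 fold change was 1.01 ± 0.11 (SE) at 12 h and 0.78 ± 0.11 at 24 h, with adjusted p of 7.2e-06 and 0.0001 in edgeR's test. The 12 h change was 0.84 when that replicate was left out. Of the exonic bases of Smtn, 16.3% lie under genes on the opposite strand.

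The other actin and SRF genes that rose at both times were Tpm4 and Tagln2, which encodes transgelin-2, an actin-binding protein outside muscle. Tpm4 was at 393, 394 and 395 CPM at 0 h, at 503, 455 and 492 CPM at 12 h, and at 455, 458 and 444 CPM at 24 h, so no library with NRG1 overlapped those without. Its log2 fold change was 0.30 ± 0.04 at 12 h (adjusted p = 3.28e-05, edgeR) and 0.20 ± 0.04 at 24 h (adjusted p = 0.00158). For Tagln2 the rise was 0.21 ± 0.04 and then 0.17 ± 0.04 on the log2 scale.

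The tropomyosins and myosin did not move as 1 group. Tpm1 fell by 0.19 ± 0.04 at 12 h and by 0.14 ± 0.04 at 24 h, opposite to Tpm4. The 24 h result did not pass without 0 h replicate 3 or 24 h replicate 1 or 2. Tpm2 passed at neither time (0.05 ± 0.09 and -0.13 ± 0.09). Myh9, the heavy chain of nonmuscle myosin IIA, was at 1127, 1216 and 1134 CPM at 0 h, 956, 906 and 1063 CPM at 12 h, and 1016, 1084 and 1047 CPM at 24 h. All 6 libraries with NRG1 were below the 3 at 0 h. The log2 fold change was -0.25 ± 0.05 at 12 h (adjusted p = 0.00152, edgeR) and -0.14 ± 0.05 at 24 h, where the adjusted p of 0.0579 missed the threshold. When replicate 3 at 12 h was left out, it was -0.31 at 12 h and -0.14 at 24 h (adjusted p = 0.014). Leaving out replicate 2 of that time instead gave an adjusted p of 0.0356 at 24 h, and DESeq2 gave 0.0376.

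The calponin genes Cnn2 and Cnn3, whose products bind actin and dampen myosin, fell at 12 h. Cnn3 fell by 0.11 ± 0.03 at 12 h and by 0.17 ± 0.03 at 24 h. The 12 h result did not pass without 0 h replicate 2 or 3 or 12 h replicate 1 or 3, and 17.7% of its exonic bases lie under opposite-strand genes. Cnn2 was at 192, 184 and 193 CPM at 0 h, 167, 168 and 151 CPM at 12 h, and 195, 187 and 192 CPM at 24 h. The 12 h libraries lay below all others, and those of 0 and 24 h overlapped. Its log2 fold change was -0.23 ± 0.04 at 12 h and 0.01 ± 0.04 at 24 h against 0 h. Replicate 3 was its lowest 12 h library. In the 9 fits that each left out 1 library, the 12 h value ran from -0.17 to -0.26 and passed in all.

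The actins, crosslinkers and adhesion proteins moved little. Actg1 was at 1421, 1330 and 1332 CPM at 0 h, 1433, 1412 and 1447 CPM at 12 h, and 1479, 1482 and 1470 CPM at 24 h. Its rise of 0.12 ± 0.03 at 24 h (adjusted p = 0.0241, edgeR) did not pass in 5 of the 9 fits made without 1 library, those without 0 h replicate 2 or 3 or any of the 24 h libraries. Actb, at 1985, 1943 and 1977 CPM at 0 h, 2047, 2089 and 1981 CPM at 12 h, and 1993, 1945 and 1982 CPM at 24 h, overlapped at all times and did not pass. Of the alpha-actinins, which bundle filaments, Actn1 fell by 0.12 ± 0.04 at 12 h, which did not pass in 4 such fits (without 0 h or 12 h replicate 2, 0 h replicate 3 or 12 h replicate 1), and Actn4 did not pass (-0.01 ± 0.03).

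Vcl (vinculin), Zyx (zyxin) and Flna (filamin A), proteins of adhesions and of filament networks, passed at neither time, with log2 fold changes from -0.04 to 0.14 at 12 h and from -0.08 to 0.14 at 24 h. For Vcl, 25.5% of exonic bases lie under an opposite-strand gene. Zyx was at 0.07 at 12 h without replicate 3, its highest 12 h library, against 0.14 with it. Flna had the widest spread of them at 12 h, with 649, 621 and 795 CPM. Without replicate 3, the highest, it was -0.15 against 0 h and passed (adjusted p = 0.0263). Srf itself was at 49.4, 46.8 and 52.4 CPM at 0 h, 42.8, 50.9 and 49.8 CPM at 12 h, and 47.1, 46.3 and 47.0 CPM at 24 h. The 3 time points overlapped, and its log2 fold changes of -0.05 ± 0.06 and -0.08 ± 0.06 did not pass. Tagln, at 0.248, 0.105 and 0.319 CPM at 0 h, 0.391, 0.257 and 0.392 CPM at 12 h, and 0.131, 0.329 and 0.382 CPM at 24 h, was near the floor at all times, and its 0.66 ± 0.50 at 12 h did not pass.

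Among the YAP targets that encode secreted or surface proteins, some rose and some fell. Ccn2 was at 288, 305 and 318 CPM at 0 h, 316, 364 and 371 CPM at 12 h, and 364, 366 and 364 CPM at 24 h. The lowest 12 h library lay just below the highest 0 h library, while all 24 h libraries were above 0 h. The log2 fold change was 0.20 ± 0.05 at 12 h (adjusted p = 0.0081, edgeR) and 0.26 ± 0.05 at 24 h (adjusted p = 0.00183). For this gene 23.2% of exonic bases lie under opposite-strand genes.

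Ccn1, the relative of Ccn2, was at 76.5, 85.6 and 79.2 CPM at 0 h, 82.3, 80.9 and 119 CPM at 12 h, and 75.3, 81.9 and 66.7 CPM at 24 h. Only replicate 3 at 12 h was outside the range of the 0 h libraries at that time. The log2 fold change at 12 h was 0.22 ± 0.11 and did not pass (adjusted p = 0.151, edgeR). It was 0.03 without that replicate, and 0.32 with an adjusted p of 0.0489 without replicate 2. At 24 h it was -0.11 ± 0.11. At 12 h the estimates of Ccn1 and Ccn2 were close, with a larger SE for Ccn1, and the difference between the 2 genes was not tested.

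F3, at chr3:121723537-121735048 on the plus strand, encodes tissue factor, the initiator of coagulation. It was at 144, 150 and 137 CPM at 0 h, 194, 179 and 215 CPM at 12 h, and 158, 157 and 160 CPM at 24 h. The 12 h libraries were above all others. It rose by 0.45 ± 0.05 on the log2 scale at 12 h (adjusted p = 1.67e-05, edgeR), or by 0.38 without replicate 3, and its 24 h value of 0.14 ± 0.05 missed the threshold (adjusted p = 0.0869) although the 3 libraries were above those at 0 h. Leaving replicate 3 at 12 h out of the fit gave 0.14 for 24 h, with an adjusted p of 0.013, and leaving out replicate 2 there gave an adjusted p of 0.034.

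Tgfb2, which encodes a TGF-β ligand, was at 27.2, 26.3 and 25.6 CPM at 0 h, 21.5, 19.3 and 23.5 CPM at 12 h, and 20.6, 20.6 and 21 CPM at 24 h. All libraries with NRG1 were below those without. It fell by 0.30 ± 0.07 at 12 h and by 0.34 ± 0.07 at 24 h on the log2 scale (adjusted p = 0.00366 and 0.00173, edgeR). Axl, a receptor tyrosine kinase, fell by 0.18 ± 0.04 at 12 h and was at -0.04 ± 0.04 at 24 h. Nt5e (CD73) and Crim1, both surface proteins, did not pass, with log2 fold changes from -0.14 to -0.04 over the 2 times.

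The YAP targets that feed back on the Hippo pathway had 3 of 5 members lower at 12 h, beside 11.9% of all tested genes. At 24 h, 0 of 5 passed in edgeR and in DESeq2, beside 17.4% of all tested genes in edgeR, and 1, Wwc1, had an unadjusted p under 0.05 by either tool. Amotl2, an angiomotin that holds YAP outside the nucleus, was at 117, 119 and 129 CPM at 0 h, 99.2, 107 and 103 CPM at 12 h, and 119, 126 and 125 CPM at 24 h. Its 12 h libraries lay below all others, with a log2 fold change of -0.24 ± 0.04 at 12 h and 0.02 ± 0.04 at 24 h. Wwc1 (KIBRA), an upstream activator of the kinases, fell by 0.16 ± 0.04, and Ajuba, a LIM protein that inhibits LATS kinases, fell by 0.11 ± 0.04 at 12 h. For Ajuba this was lost in 5 of the 9 fits without 1 library (0 h replicate 2 or 3, 12 h replicate 1 or 3, or 24 h replicate 2). Lats2, the kinase itself, did not pass (-0.06 ± 0.07), and 42.4% of its exonic bases are shared with a gene on the same strand. Nuak2, a kinase at 1.49 ± 0.33 CPM at 0 h (SD, n = 3), gave -0.58 ± 0.27 at 12 h and did not pass.

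Of the remaining YAP targets, Filip1l, which encodes a filamin-interacting protein and has the CArG box shown above, was at 32.1, 33.1 and 32.3 CPM at 0 h, 42.3, 42.9 and 46.9 CPM at 12 h, and 40.9, 49.0 and 43.0 CPM at 24 h. The groups with and without NRG1 did not overlap. Its log2 fold change was 0.44 ± 0.06 and 0.45 ± 0.06 at the successive times, with adjusted p of 9.66e-05 and 9.84e-05 in edgeR's test. Ankrd1, at 2.06, 1.76 and 1.68 CPM at 0 h, 1.70, 1.25 and 2.06 CPM at 12 h, and 1.93, 2.24 and 1.99 CPM at 24 h, overlapped throughout and did not pass.

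**Figure D4:**
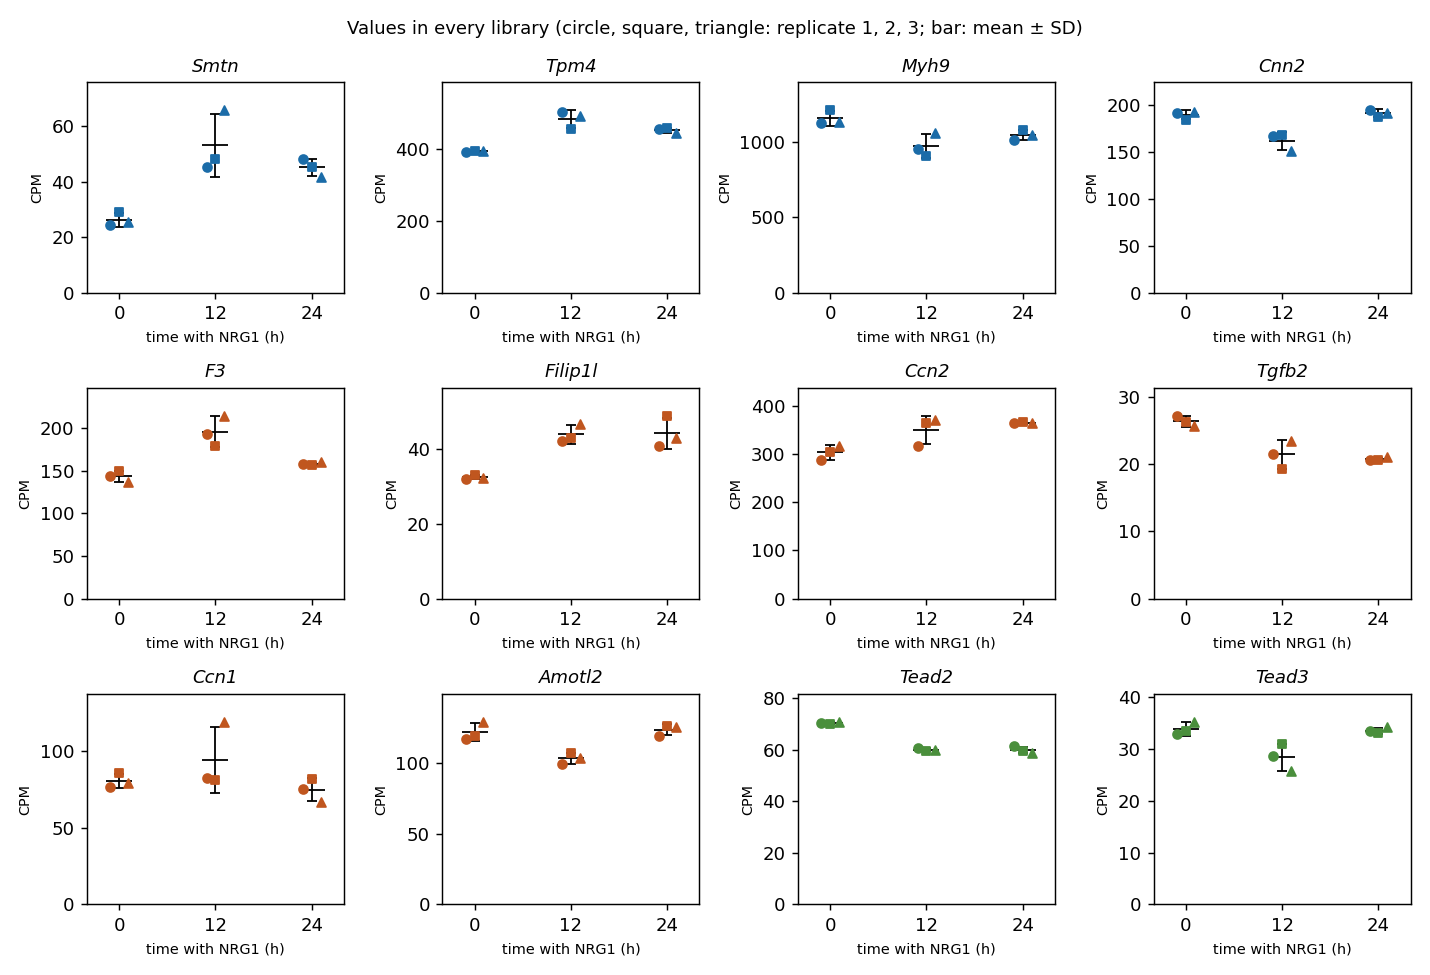
CPM of 12 members in every library at 0, 12 and 24 h, with circles, squares and triangles for replicates 1, 2 and 3, and bars for the mean ± SD of 3 libraries on axes that start at 0. The 12 h libraries of Cnn2 (151 to 168) and Amotl2 (99.2 to 107) lie below those of both other times, those of F3 (179 to 215) above, and Smtn and Ccn1 have their highest value in replicate 3 at 12 h.

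The RNA of the coactivators did not pass at any time. Yap1 was at 239, 232 and 228 CPM at 0 h, 236, 232 and 237 CPM at 12 h, and 229, 233 and 235 CPM at 24 h, and Wwtr1 at 32.2, 33.6 and 30.3 CPM, 30.4, 30.4 and 33.9 CPM, and 32.7, 32.8 and 35.3 CPM at the same times. The time points overlapped for both, and their log2 fold changes lay between -0.02 and 0.07, with SE of at most 0.06. RNA levels do not measure where these proteins are in the cell.

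Of the TEAD genes, Tead2 and Tead3 fell and Tead1 and Tead4 did not pass. Tead2 was at 70.3, 69.9 and 70.8 CPM at 0 h, 60.6, 59.5 and 59.9 CPM at 12 h, and 61.3, 59.3 and 58.8 CPM at 24 h. Its libraries with NRG1 were all below those without, by 0.23 ± 0.04 at 12 h and 0.24 ± 0.04 at 24 h on the log2 scale (adjusted p = 0.000402 and 0.000432, edgeR). Tead3 was at 32.9, 33.4 and 35.3 CPM at 0 h, 28.7, 30.9 and 25.7 CPM at 12 h, and 33.4, 33.1 and 34.2 CPM at 24 h. It fell by 0.25 ± 0.06 at 12 h (adjusted p = 0.00675, edgeR), and by 0.17 without replicate 3 of that time, and was at -0.01 ± 0.06 at 24 h. Tead1 gave -0.11 ± 0.08 and 0.03 ± 0.07, and Tead4 0.14 ± 0.06 and 0.12 ± 0.06.

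The 24 h libraries were compared directly with those at 12 h to see which members moved between the times. Of 37 members, 5 passed (13.5%), 4 higher and 1 lower at 24 h, against 5.03% of all tested genes, 1.97% higher and 3.06% lower. At a mean of at least 10 CPM these shares were 14.7% of members and 6.16% of genes, and the libraries did not overlap for 10 of 37 members, against 25.0% of tested genes. By edgeR and by DESeq2, 0 members were called at 1.5-fold, against 0.290% of genes in edgeR. At an unadjusted p under 0.05 there were 12 members, 1 of them at least 1.5-fold. Cnn2 rose by 0.24 ± 0.04, Amotl2 by 0.26 ± 0.04, Axl by 0.14 ± 0.04 and Tead3 by 0.24 ± 0.06, and these 4 had all been lower at 12 h than at 0 h. F3 fell by 0.31 ± 0.05 after its rise. The comparisons of 12 h with 0 h and of 24 h with 12 h use the same 12 h libraries with opposite sign. A low or high value at 12 h therefore enters both, and they are not independent evidence of a reversal. Adjusted p in edgeR's test was between 0.00324 and 0.0344 for these 5. Over the fits made without 1 library, the rise of Cnn2 ran from 0.18 to 0.27. The changes of Cnn2, Amotl2 and F3 passed in all 9 fits made without 1 library, while those of Axl and Tead3 did not pass in 5 each, those without 12 h replicate 1 or 3 or any of the 24 h libraries.

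By group, this was 1 of 17 actin and SRF genes, 3 of 14 YAP targets and 1 of 6 factor genes. Without replicate 3 at 12 h, 3 actin and SRF genes passed, Cnn2, Myh9 at 0.17 and Flna at 0.28, and Tead3 no longer did (0.17, adjusted p = 0.0836, edgeR). Smtn was at -0.23 ± 0.11 between 12 and 24 h and Ccn1 at -0.33 ± 0.11, and neither passed. Without replicate 3 at 12 h these values were -0.05 and -0.14, while without replicate 2 Ccn1 was at -0.43 and passed (adjusted p = 0.038, edgeR).

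The courses of single members are given side by side, with the reminder that both comparisons against 0 h use the same 0 h libraries. The 12 h libraries are likewise shared by the comparisons of 12 h with 0 h and of 24 h with 12 h. Higher than at 0 h at each time were Tpm4, Tagln2, Smtn, Ccn2 and Filip1l, and lower at each were Tpm1, Cnn3, Tgfb2 and Tead2. Lower at 12 h and then higher from 12 to 24 h were Cnn2, Axl, Amotl2 and Tead3, and F3 had the opposite course. Actn1, Myh9, Ajuba and Wwc1 passed as lower at 12 h alone, Actg1 passed as higher at 24 h alone, and 18 members passed in no comparison. Some of these 18 passed when a single library was left out. At 12 h these were Zyx without 12 h replicate 1 (0.21), Nt5e without 0 h replicate 2 (-0.22) and Crim1 without 12 h replicate 3 (-0.13), beside Flna and Ccn1 as given above. At 24 h they were Zyx (0.15) and Flna (0.13) without 12 h replicate 3 and Tead4 without 24 h replicate 2 (0.19). Actg1 also passed at 12 h without 0 h replicate 1 (0.10). In the fit without a filter on low counts, Ccn1 passed at 12 h (0.22) and from 12 to 24 h (-0.33). In that fit Zyx also passed at 12 and 24 h, and Flna at 24 h and from 12 to 24 h. Tead4 passed in it at 12 h and Tead1 from 12 to 24 h, while Ajuba no longer passed at 12 h. Passing at 1 time and not at the other does not show a difference between the times, which the direct comparison addresses.

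As a summary per library, the mean log2 CPM of each group was set against its mean at 0 h. For the 17 actin and SRF genes it ran from 0.04 to 0.14 at 12 h and from 0.01 to 0.09 at 24 h, although their median fold change was near 0. Without Smtn and Tagln it ran from -0.04 to 0.02 at 12 h and from -0.02 to 0.01 at 24 h, around the level at 0 h. Smtn and Tagln had the largest positive log2 fold changes of the group at both times, so leaving them out lowers the mean by construction. For the 14 YAP targets it was between -0.08 and 0.0032 at 12 h, with replicate 3 the highest, and between 0.0009 and 0.05 at 24 h. These include Nuak2 and Ankrd1, at only 1.49 and 1.84 CPM at 0 h. Their 12 h log2 fold changes of -0.58 and -0.13 did not pass but lower the 12 h values. A YAP summary without these genes was not made, so it is not matched to the reduced actin one. For the 6 factors the mean ran from -0.11 to -0.04 at 12 h and from -0.03 to 0.04 at 24 h. These summaries rest on chosen genes and have no test.

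Other genes of the same pathways were read from the same fit, from lists that were also chosen with earlier results of these data known. Of 20 tested further targets of SRF, 3 rose and 5 fell at 12 h, which is 40% passing beside 25.5% of all tested genes, and 2 rose and 2 fell at 24 h, which is 20% beside 17.4%. The LIM protein genes Fhl2 and Fhl1 went opposite ways. Fhl2 rose by 0.44 ± 0.04 and 0.40 ± 0.04, and Fhl1, at 2.80 CPM at 0 h and 1.30 CPM at 24 h, fell by 1.14 ± 0.24 on the log2 scale at 24 h (adjusted p = 0.00356, edgeR) and was the only one called. Its 24 h libraries were at 1.77, 1.44 and 0.688 CPM. Without 24 h replicate 3, the lowest, the change of Fhl1 was -0.81 (adjusted p = 0.0143, edgeR).

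Of 8 tested further YAP targets, 2 rose and 2 fell at 12 h and 1 rose at 24 h, or 50% and 12.5% passing beside 25.5% and 17.4% of all tested genes. Ptpn14, a phosphatase that restrains YAP, rose by 0.41 ± 0.11 at 12 h. It was at 0.21 without replicate 3 of that time (adjusted p = 0.0201, edgeR) and did not pass without 0 h replicate 3 (0.36, adjusted p = 0.0501), and at 24 h it passed only without 12 h replicate 3 (0.27, adjusted p = 0.00194). Foxf2, a forkhead factor, rose by 0.26 ± 0.05 at 24 h. Of 17 tested Hippo kinases and regulators, 1 passed at each time, or 5.88% beside 25.5% of all tested genes at 12 h and 17.4% at 24 h. Amotl1, an angiomotin, fell by 0.11 ± 0.03 at 12 h, which did not pass without 0 h replicate 2 or 3, 12 h replicate 2 or 3, or 24 h replicate 2. Nf2 (merlin) fell by 0.14 ± 0.04 at 24 h, which did not pass without 0 h replicate 2 or 3 or 24 h replicate 1 or 2.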

How the data were processed

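MyC-CaP cells were sequenced as mRNA libraries, with reads of 150 bp from both ends. Cutadapt, STAR and featureCounts were used by the authors to trim, align (GRCm38.p6, GENCODE M24) and count them. The deposited values are raw counts per gene without normalization. Whether strand was used in counting is not given in the sources used here, so genes that overlap others can hold their reads.

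Time points from the labels made the groups. The counts were filtered with filterByExpr, scaled by TMM and fitted over all 9 libraries in edgeR 4.0.16 (R 4.3.3). A gene passed at a Benjamini-Hochberg adjusted p of at most 0.05 in the quasi-likelihood F-test and was called at 1.5-fold as well. SE came from each fold change and its F statistic. Log2 CPM used a prior count of 2. DESeq2 1.42.0, other scalings, no filter, glmTreat, a replicate block and leaving out each library were alternatives. Every pair of replicates differed beyond counting noise (chi-square per degree of freedom from 3.41 to 10.5). Exon lengths and overlaps came from GENCODE M21 and promoter windows from RefSeq.

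The members and lists were chosen with earlier results of these data known. Values in every library were given for members called, for up to 3 members of each group with the largest change among those passing against 0 h, and for Ccn1, Ccn2, Ankrd1, Srf, Acta2, Tagln, Actb, Actg1, Yap1 and Wwtr1. Cnn2, Amotl2 and the 12 h values of Flna were added after their values were seen. From the other lists, called genes and up to 2 with the largest change were named. A marker and a list of pathway genes are not reported here.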

Additional observations from a re-analysis of the deposited data

Results flagged for a closer look

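For 5 members the change differed between the times with NRG1, by the direct test of 24 h against 12 h in edgeR. Cnn2 was higher at 24 h by 0.24 on the log2 scale, Axl by 0.14, Amotl2 by 0.26 and Tead3 by 0.24, after each had fallen at 12 h. F3 was lower at 24 h, at -0.31. The results for Axl and Tead3 were each lost in 5 of the 9 fits without 1 library.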

How the results depend on the processing

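No change that passed turned its direction under the 15 alternatives. The test of whether a change exceeded 1.5-fold (glmTreat) left 0 actin and SRF genes, 0 YAP targets and 0 factor genes in each of the 3 comparisons and called 0 members. It called 4 genes of all tested at 12 h, 6 at 24 h and 0 between 12 and 24 h. Smtn was the 1 member with an unadjusted p under 0.05 in it, at 12 and at 24 h, with adjusted p of 0.13 and 1. Without a filter on low counts, 53 genes were called from 12 to 24 h in place of 33, and 3 actin and SRF genes and 2 factor genes passed in place of 1 each.

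Leaving out 1 library at a time gave 200 to 280 genes called at 12 h, 182 to 279 at 24 h and 16 to 36 between the times, with 16 reached without 24 h replicate 1. Actin and SRF genes passing numbered 6 to 9 at 12 h, 4 to 9 at 24 h and 1 to 3 between the times. YAP targets numbered 7 to 9, 3 to 4 and 2 to 4, and factor genes 2 to 2, 1 to 2 and 0 to 1, with 2 at 24 h without 24 h replicate 2. Smtn was the 1 member called at 12 h and at 24 h in each of these fits.

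With the replicate number as a block, 7 actin and SRF genes passed at 24 h in place of 6, since Myh9 passed (-0.14, adjusted p = 0.0483, edgeR), and the other member counts did not change. The blocked fit called 268, 259 and 33 genes in the 3 comparisons. Deviations of same-numbered libraries from their time point means correlated with r from -0.074 to 0.131, over 0.1 in 1 of 9 pairs, and not every library correlated best with its own number, so the libraries were taken to share only a number.

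With 3 libraries a time point, the SE of the 12 h log2 fold change reached 0.50 for Tagln and 0.27 for Nuak2, so changes of that size were not detectable, and Acta2, Myl9 and Thbs1 could not be tested. The cause of these shifts between settings was not tested.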
